A study of Solanum lycopersicum with 3 samples.

Results

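Known miRNAs were compared between tomato ovaries silenced for IAA9 (IAA9sil) and mock-treated ovaries (ctrl). The members are the miRNAs whose name begins with sly-, the miRBase prefix of tomato, and that had at least 50 reads summed over the 3 libraries of the series. There were 91 of them among 125 known and 634 listed miRNAs, and they belong to 50 families, a family being the number in the name. They held 1019313 of 1053000 counted miRNA reads in IAA9sil (96.8%) and 1007092 of 1038064 in ctrl (97.0%). Ovaries of the cultivar UC82 (Solanum lycopersicum) were used in all groups. The sample labels describe all of them as pre-anthesis, unpollinated and detached, and ctrl as wild type (WT). In IAA9sil each flower pedicel was injected with 5 µg of dsRNA against IAA9 bound to 1 mg of LDHs, layered mineral particles that carry RNA into tissue, and in ctrl with LDHs alone. Buds were emasculated after 6 h, pollination was prevented, and ovaries were harvested on day 5. The buds came from 8 to 10 glasshouse plants, and each library was made from RNA of a pool of ovaries, with 1 library per condition. Another library came from ovaries treated in the same way with dsRNA against AGL6 (AGL6sil). Silencing by dsRNA was partial, not a knockout. The transcript of IAA9 is not part of these counts, so the label of IAA9sil could not be checked with them.

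IAA9 is an Aux/IAA protein, a repressor of auxin-responsive genes that holds back growth of the ovary before pollination, and its loss gives seedless fruits in tomato. Plant miRNAs are cut from hairpin precursors by DCL1. One arm of the duplex, the guide, is loaded into an ARGONAUTE protein and directs cleavage or translational repression of matching mRNAs, and the other, the passenger, is mostly degraded. Auxin signalling is a target of several conserved families: miR393 acts on the TIR1 and AFB receptors, miR167 on ARF6 and ARF8, miR160 on ARF10, ARF16 and ARF17, and miR390 on the TAS3 RNA, whose small RNAs act on ARF2, ARF3 and ARF4.

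The sequences of the 6 members with the largest decreases are given first, because the results turn on them, together with the listed sequence of a relative or of the other arm where the study's supplement holds one. Bases 2 to 8 from the 5′ end, which pair first with a target, are in capitals. A sequence was at hand for 44 of the 91 members.
sly-miR393: aUCAUGCGaucucuucggaau
sly-miR530: aGGUGUAGguguucaugcaga
sly-miR167a: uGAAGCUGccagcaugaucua
sly-miR167b-5p: uAAAGCUGccagcaugaucugg
sly-miR395a: cUGAAGUGuuugggggaacucc
sly-miR482e-5p: uGUGGGUGggguggaaagauu
sly-miR394-3p: aGGUGGGCauacugucaaca
sly-miR394-5p: uUGGCAUUcuguccaccucc
The 6 carry 6 different seeds, where all 44 members with a sequence carry 43. Of the 6, 3 begin with A, 2 with U and 1 with C. Over their first 21 bases sly-miR167a and sly-miR167b-5p differ only by G2A and A21G, counted from the 5′ end with the base of sly-miR167a first. The sequence listed for sly-miR393 is of the type of the 3′ arm of miR393 in Arabidopsis, where the arm known to act on TIR1 is the 5′ arm.

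Members of the miR171 and miR390 families are shown next, because members of these families differed in opposite directions.
sly-miR171a: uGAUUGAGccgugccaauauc
sly-miR171b-3p: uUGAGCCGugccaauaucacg
sly-miR171c: uAUUGGUGcgguucaaugaga
sly-miR171f: uAUUGGCCugguucacucaga
sly-miR390a-5p: aAGCUCAGgagggauagcacc
sly-miR390a-3p: cGCUAUCCauccugaguuuua
A run of 18 bases is shared by sly-miR171a and sly-miR171b-3p. In antiparallel orientation 18 of 19 bases of sly-miR171c could pair with sly-miR171a, 3 of them as G:U, and 17 of 19 bases of sly-miR171f, 2 of them as G:U, so that these members are of the opposite arm. The 5p and 3p arms of sly-miR390a could pair at 17 of 19 bases.

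For each member the reads in IAA9sil were divided by 1.16, the ratio of the median counts of IAA9sil and ctrl over all 634 miRNAs, and the log2 ratio to ctrl was taken. A log2 ratio of −1.5, the limit used by the study, is a 2.83-fold decrease. Values in parentheses give the 95% interval that the reads of both libraries allow (Clopper-Pearson, and for arm ratios a normal approximation on the log scale). This is counting error alone, and no molecular identifiers are described that would tell PCR copies apart. With 1 library per condition no spread between ovary pools was measured and no test was made, and every ratio compares these libraries. The 6 other scalings tried raised every log2 ratio of IAA9sil by between 0.05 and 0.34, so that directions are given as holding only where they do under all 7. They raised every log2 ratio of AGL6sil by between 0.09 and 1.48, so that the ratios given for that library depend more on the scale.

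In IAA9sil, 6 of the 91 known miRNAs were lower past the limit and 0 were higher. They are sly-miR167a of the auxin response, sly-miR393 (of a family that acts on auxin receptors, though the listed sequence is not of the arm known to do so), sly-miR395a of the sulfate response, 1 arm each of miR482e and miR394, and sly-miR530. The share of 6.59% lower compares with 4.55% over all 374 miRNAs past the read limit, predicted ones included, and 2.41% of those 374 were higher past the limit. The median log2 ratio of the 91 was −0.02, with quartiles of −0.51 and 0.24, against −0.05 for the 374 and −0.08 for the 283 predicted miRNAs. Most known miRNAs thus lay near ctrl, and few of them far below it.

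**Figure D1:**
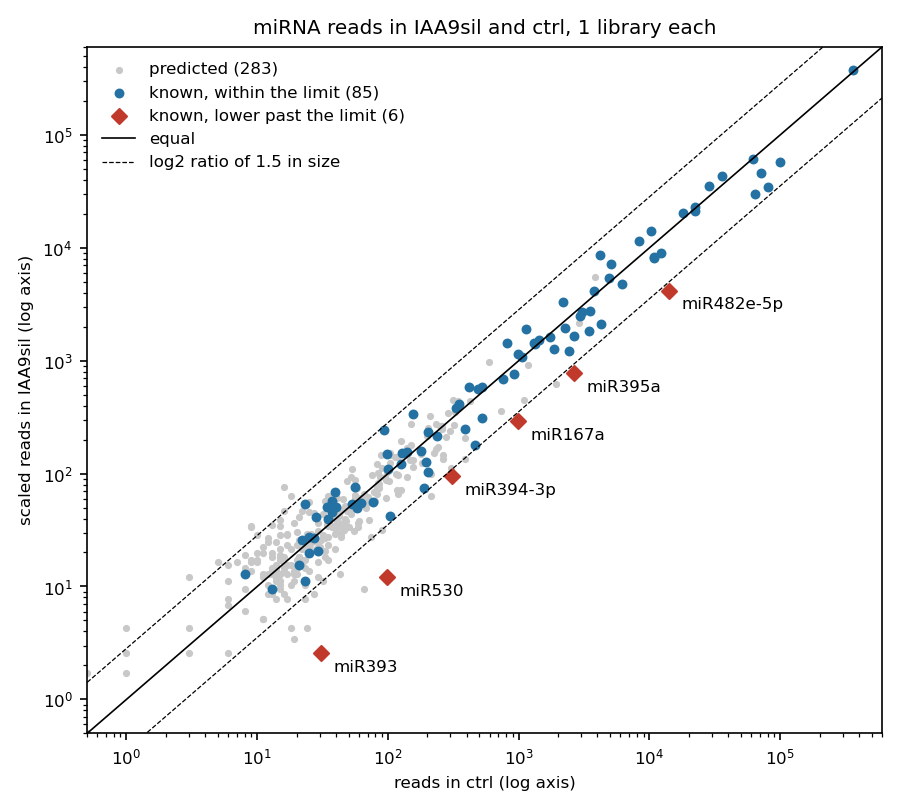
Reads of each miRNA in ctrl (x axis, log scale) and in IAA9sil divided by 1.16 (y axis, log scale), with 1 library each. Blue points are the 85 known miRNAs within the limit, red diamonds the 6 lower past it, grey points the 283 predicted miRNAs (a count of 0 in ctrl is drawn at the edge), and dashed lines mark a log2 ratio of 1.5 in size. The 6 diamonds lie on or under the lower dashed line from 31 to 14078 reads in ctrl, and no known miRNA lies above the upper one.

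sly-miR167a, a repressor of the auxin response factors ARF6 and ARF8, had 336 reads in IAA9sil, 989 in ctrl and 313 in AGL6sil. It was 3.42-fold lower in IAA9sil than in ctrl (log2 ratio −1.77, interval −1.96 to −1.59). sly-miR167b-5p, which differs from it in the seed, had 62 reads in IAA9sil, 53 in ctrl and 22 in AGL6sil and a log2 ratio of 0.01 (−0.54 to 0.57). The counting intervals of these family members do not overlap. Summed over both, miR167 had 398 reads in IAA9sil and 1042 in ctrl, a log2 ratio of −1.60 (−1.77 to −1.44), which was lower under all scalings but past the limit only with the library medians over all miRNAs and the median of ratios or TMM.

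sly-miR393 had 3 reads in IAA9sil, 31 in ctrl and 18 in AGL6sil. The log2 ratio of −3.58 is the lowest of the 91 and has the widest interval (−5.94 to −1.90). Its total of 52 reads is also the lowest among the members. Just outside the read limit were sly-miR172a with 48 reads in total and sly-miR171b-5p with 46, and just inside were sly-miR482d-5p and sly-miR9471b-5p with 57 each. sly-miR171b-5p had 33 reads in IAA9sil and 9 in ctrl, a log2 ratio of 1.66 (0.56 to 2.91), and is not counted here.

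sly-miR395a, of a family that represses ATP sulfurylases and a sulfate transporter and is known to be induced by sulfur shortage, had 904 reads in IAA9sil, 2628 in ctrl and 7258 in AGL6sil. It was 3.38-fold lower in IAA9sil than in ctrl (−1.76, interval −1.87 to −1.65). Among the 6 it was the one with a positive log2 ratio in AGL6sil, 0.38 (0.31 to 0.44), and it was the one under all 7 scalings. The comparisons of IAA9sil and AGL6sil share the ctrl library.

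sly-miR530 had 14 reads in IAA9sil, 98 in ctrl and 18 in AGL6sil. The log2 ratio in IAA9sil was −3.02 (−3.95 to −2.21), an 8.13-fold difference. A role for miR530 has been described in rice, where it acts on a PLUS3-domain protein gene and on grain yield.

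sly-miR482e-5p and sly-miR394-3p are passenger arms. The first had 4848 reads in IAA9sil, 14078 in ctrl and 1860 in AGL6sil, with a log2 ratio in IAA9sil of −1.75 (−1.80 to −1.71). The second had 111, 308 and 1 reads in the same order, with a log2 ratio of −1.69 (−2.01 to −1.37). The guide arms of the same precursors, sly-miR482e-3p (NBS-LRR immune receptors) and sly-miR394-5p (the F-box gene LCR), had log2 ratios of 0.18 (0.15 to 0.20) and 0.16 (an interval that reached 0.33 and included 0), so that the decrease was not seen on the arms with the known targets.

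How far the 6 lie past the limit depends on the scale. sly-miR393 and sly-miR530 stayed past it under all 7 scalings. The counting interval lay wholly past −1.5 for 5 of the 6, the exception being sly-miR394-3p. Scaled by the clean reads of each library, sly-miR167a (−1.43), sly-miR395a (−1.41), sly-miR482e-5p (−1.41) and sly-miR394-3p (−1.35) remained lower than ctrl without reaching the limit. sly-miR394-3p also missed it with the median of known miRNAs (−1.48), the total miRNA count (−1.49) and no scaling (−1.47). The largest decrease within the limit was that of sly-miR390a-3p at −1.39.

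**Figure D2:**
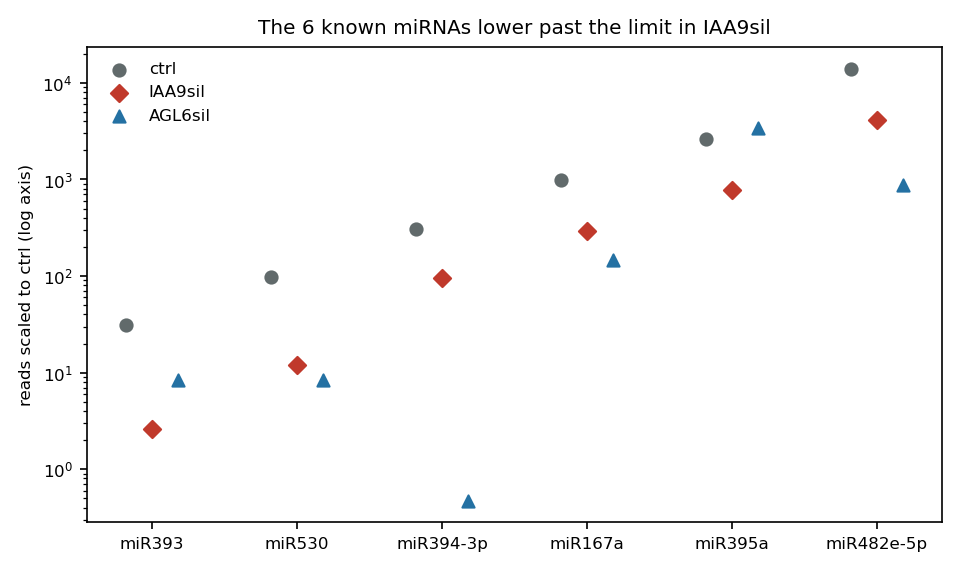
Reads of the 6 known miRNAs lower past the limit, on a log axis, in ctrl (grey circles), IAA9sil (red diamonds) and AGL6sil (blue triangles), the last 2 divided by their library's median relative to ctrl, with 1 library each and no error bars. IAA9sil lies under ctrl for each of them, and AGL6sil lies above ctrl for sly-miR395a alone.

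Smaller differences than the limit were resolved for the deeper members. The counting interval lay below 0 for 33 of the 91 (36.3%) and above 0 for 26 (28.6%), against 20.9% and 17.6% of all 374 miRNAs, and it included 0 for 32. The balance of lower and higher members depended on the scale. It was 31 below and 30 above with the median of ratios and 31 and 32 with TMM. With the median of known miRNAs, the total miRNA count or no scaling it was 27 and 39, and with the clean reads 23 and 46. Predicted miRNAs, counted at lower depth, had 15.9% below and 14.1% above. Where the rarer library of the pair held under 100 reads, as for 28 members, the interval reached a median of 0.66 to either side, and where it held 1000 or more, as for 38 members, 0.05. Changing the scale turned the direction of 15 of the 91, all of them with small ratios.

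A difference from ctrl of less than 1.5-fold, with the whole counting interval inside that range, was found for 40 of the 91 miRNAs, and for 23 of them under all 7 scalings. The abundant ones among the 23 include sly-miR162 (DCL1), with 439760 reads in IAA9sil and 361195 in ctrl and a log2 ratio of 0.07 (0.06 to 0.07). sly-miR159, which represses GAMYB genes of the gibberellin response, had 71393 and 62020 reads and a ratio of −0.01 (−0.03 to 0.00). sly-miR482e-3p of the immune class and sly-miR7981c, which has no class, also belonged to the 23. The latter had 26484 and 22310 reads and a ratio of 0.03 (0.01 to 0.06). Within 1.5-fold only under some scalings were sly-miR390b-3p of the auxin class, sly-miR398a of the nutrient class and sly-miR10532 without a class.

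Target classes were assigned by family, from a list of 34 families of which 28 had a member past the read limit. They took 58 of the 91 members, and 33 members of 22 families remained unclassed. Over all 374 miRNAs the median log2 ratio was −0.05 and 4.55% were lower past the limit. The interval counts of the classes are those with the library medians as the scale. They stand beside 36.3% below ctrl and 28.6% above among the 91 known miRNAs at the same scale. Over all 374 these shares were 20.9% and 17.6%. Changing the scale turned the direction of 5 members of the development class, 3 of the immune class, 1 of the silencing class and 6 unclassed ones. Among them sly-miR319b and sly-miR6022 are counted as below ctrl in their classes.

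**Figure D3:**
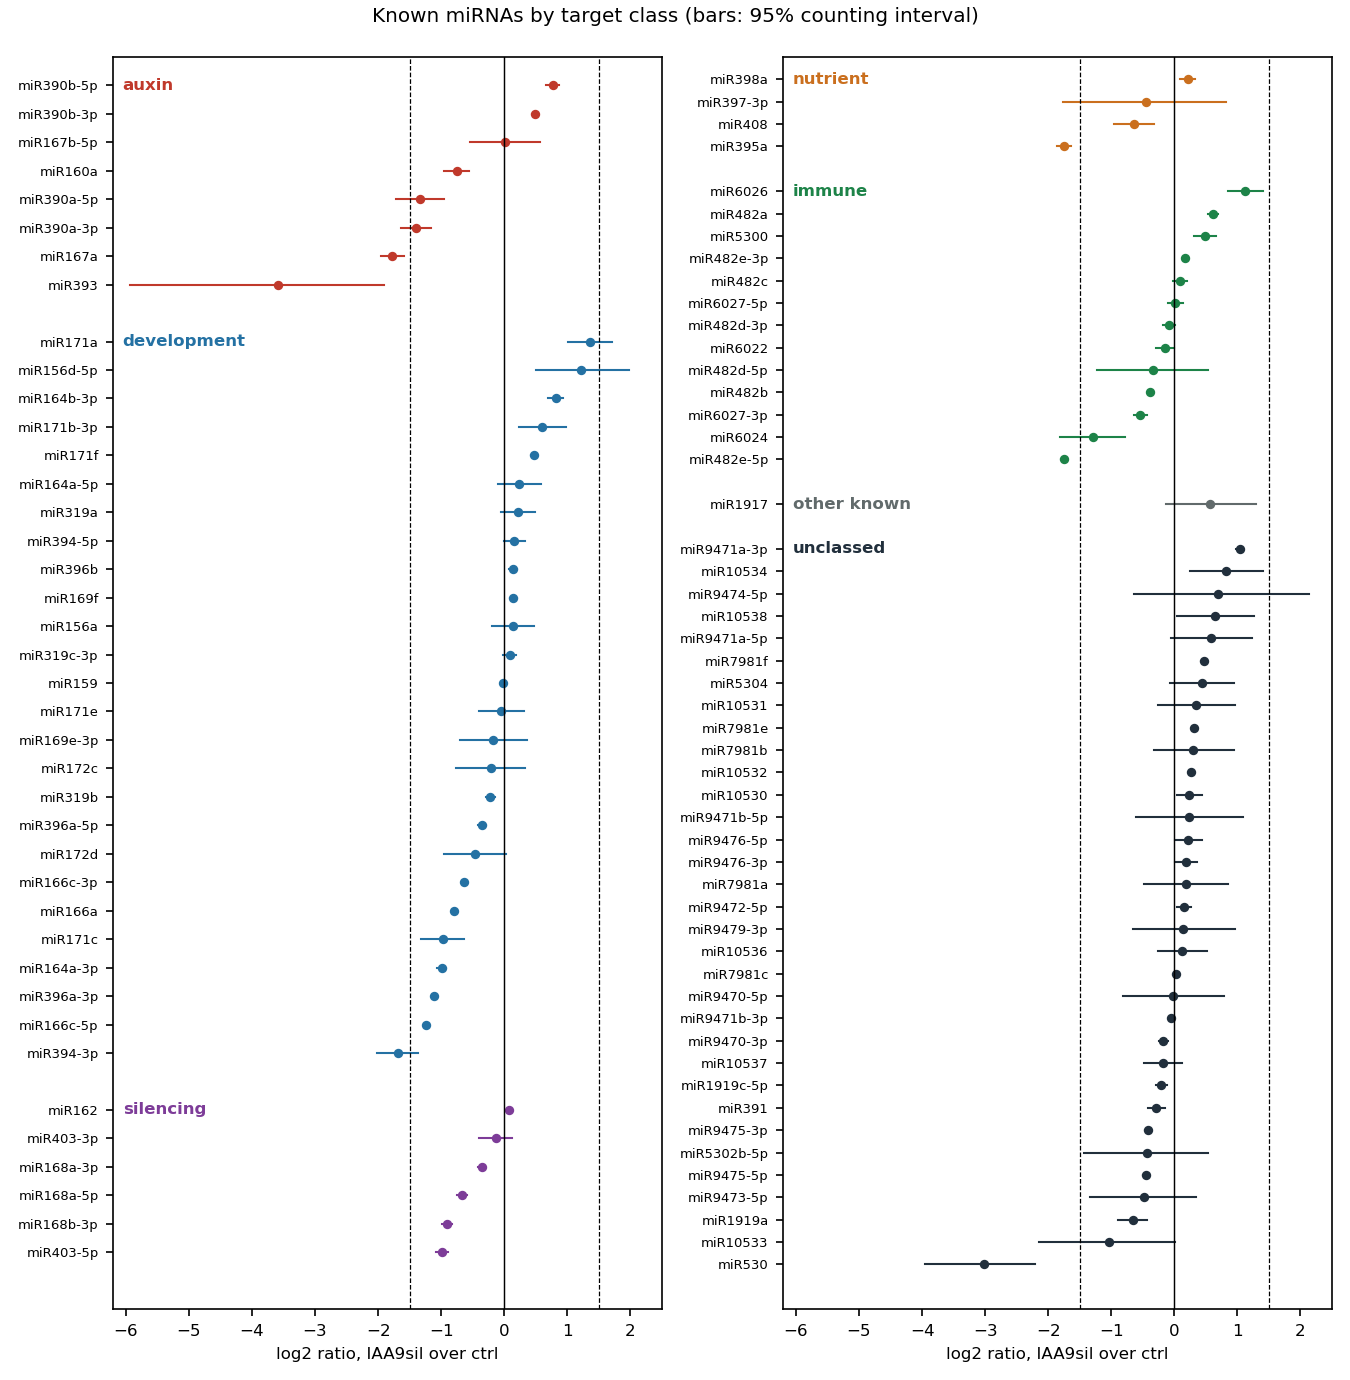
Log2 ratio of IAA9sil over ctrl (x axis) for each of the 91 known miRNAs, grouped by the target class of the family and ordered within it, with 95% counting intervals as bars. Solid lines mark 0 and dashed lines 1.5 in size. The points reach −3.58 in the auxin class and 1.36 in the development class, and 6 lie left of the lower dashed line.

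The auxin class, assigned by family and not by arm, held 8 members of 4 families. By their intervals 5 were below ctrl, 2 above and 1 not resolved, 2 were lower past the limit, and the median log2 ratio was −1.04. Among those past the limit is sly-miR393, and without it 4 of 7 members were below ctrl, 1 was lower past the limit and the median was −0.75. Besides sly-miR393 and sly-miR167a, sly-miR160a had 363 reads in IAA9sil and 526 in ctrl, a log2 ratio of −0.75 (−0.95 to −0.56). All of the 5 stayed lower under the 7 scalings. The summed reads of the class, of which most lay in miR390, were 11565 and 8449 and gave 0.24 (0.20 to 0.28), opposite in sign to the median.

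The members of miR390 split by precursor. sly-miR390a-5p had 87 reads in IAA9sil and 189 in ctrl, a log2 ratio of −1.33 (−1.72 to −0.96), and sly-miR390a-3p had 206 and 466, a ratio of −1.39 (−1.64 to −1.15). On the other precursor, sly-miR390b-5p had 2229 and 1128 reads, a ratio of 0.77 (0.66 to 0.87), and sly-miR390b-3p had 8279 and 5067, a ratio of 0.49 (0.44 to 0.54). Both arms of miR390a were thus lower and both arms of miR390b higher than ctrl, under all 7 scalings. The summed reads of miR390, which acts through TAS3 on ARF2, ARF3 and ARF4, were 10801 and 6850, a log2 ratio of 0.44 (0.40 to 0.49). Most of them, 8485 and 5533, were of the 3p passenger arms, and the 5p arms, which act on TAS3, had 2316 and 1317 reads, a ratio of 0.60 (0.50 to 0.70).

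The development class, families that act on transcription factors or on LCR, held 26 members of 10 families. Of these, 9 were below ctrl by their interval, 7 above and 10 not resolved, 1 (sly-miR394-3p) was past the limit, and the median was −0.03. The families of the class differed in direction.

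miR166, which acts on class III HD-ZIP genes of organ polarity and ovule formation, was lower on each of its 3 members. sly-miR166a had 66525 reads in IAA9sil and 99113 in ctrl, a log2 ratio of −0.79 (−0.81 to −0.78). sly-miR166c-3p had 53101 and 71529, a ratio of −0.65 (−0.66 to −0.63), and sly-miR166c-5p 39869 and 80691, a ratio of −1.23 (−1.25 to −1.22). The family's sum was −0.87 (−0.88 to −0.86), lower under all scalings and within the limit. The sequences of sly-miR166a and sly-miR166c-3p were not at hand, and how reads that match both were assigned is not given in the sources used here, so that their counts may not be separate.

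miR171, which acts on GRAS genes of the meristem, was higher in sum, at 0.46 (0.42 to 0.49), with members on both sides of ctrl. Most of its 13961 reads in IAA9sil and 8765 in ctrl were of sly-miR171f, which is of the arm opposite to sly-miR171a. The highest ratio of the 91 was that of sly-miR171a, with 280 reads in IAA9sil and 94 in ctrl (1.36, interval 1.02 to 1.71). sly-miR171b-3p, which overlaps it in sequence, had 173 and 98 reads and a ratio of 0.60 (0.24 to 0.98), and sly-miR171f of the opposite arm had 13246 and 8244, a ratio of 0.47 (0.43 to 0.51). sly-miR171c was lower, with 120 and 203 reads (−0.97, interval −1.31 to −0.64), and sly-miR171e, with 142 and 126 reads, lay at −0.04 (−0.40 to 0.31). Reads matching both sly-miR171a and sly-miR171b-3p may be shared between them. With the total miRNA count, the clean reads, the median of known miRNAs or no scaling, sly-miR171a reached 1.55 to 1.70 and was past the limit.

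miR156, which acts on SPL genes of phase change and carpel growth, included sly-miR156d-5p with 62 reads in IAA9sil and 23 in ctrl, a ratio of 1.21 (0.50 to 1.97), and sly-miR156a with 180 and 141, a ratio of 0.14 (−0.19 to 0.47). Scaled by clean reads, sly-miR156d-5p reached 1.56 and was past the limit. miR396, which acts on GRF genes of cell proliferation, had a summed ratio of −0.96 (−0.98 to −0.95), and most of its reads were of the passenger arm sly-miR396a-3p, with 34765 in IAA9sil and 64633 in ctrl (−1.11, interval −1.13 to −1.09). The guide arm sly-miR396a-5p lay at −0.35 (−0.42 to −0.28) and sly-miR396b at 0.14 (0.08 to 0.20).

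miR164, which acts on NAC genes of organ boundaries, had sly-miR164a-3p at −0.99 (−1.06 to −0.92), sly-miR164b-3p at 0.82 (0.69 to 0.94) and sly-miR164a-5p, the guide arm, at 0.24 (−0.10 to 0.58). The summed ratio of the 3 was −0.48 (−0.54 to −0.42). The remaining families of the class lay close to ctrl. miR159 (GAMYB), miR319 (TCP genes) and miR169 (NF-YA genes) had summed ratios of −0.01, −0.10 and 0.14, each with its interval inside 1.5-fold under all 7 scalings, though the first 2 were above 0 under some. miR172 (AP2 genes), with 123 and 135 reads, lay at −0.35 (−0.71 to 0.01), and miR394 summed over both arms at −0.28 (−0.43 to −0.14), above 0 when scaled by clean reads.

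The silencing class acts on the small RNA machinery itself and held 6 members of 3 families. By their intervals 4 were below ctrl, 1 above and 1 not resolved, 0 were past the limit, and the median was −0.51. miR168, which acts on AGO1, was lower on each of its 3 members: sly-miR168a-5p had 1917 reads in IAA9sil and 2624 in ctrl (−0.67, interval −0.75 to −0.58), sly-miR168a-3p had 5600 and 6173 (−0.36, interval −0.41 to −0.30) and sly-miR168b-3p had 2134 and 3446 (−0.91, interval −0.99 to −0.83). Directions held under all 7 scalings. miR403 (AGO2) was lower in sum, at −0.89 (−0.98 to −0.80), with the passenger arm sly-miR403-5p at −0.99 (−1.09 to −0.90), while the guide arm sly-miR403-3p lay at −0.13 (−0.40 to 0.13). sly-miR162 took 41.8% of all counted reads in IAA9sil and 34.8% in ctrl.

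The nutrient class held 4 members of 4 families, with a median of −0.55. After sly-miR395a came sly-miR408 (laccases and plantacyanin, of the copper response), with 146 reads in IAA9sil and 195 in ctrl and a ratio of −0.63 (−0.95 to −0.32). sly-miR397-3p, with 11 and 13 reads, was not resolved from ctrl (−0.46, interval −1.76 to 0.82). sly-miR398a, which acts on copper/zinc superoxide dismutases, had 1326 and 988 reads and a ratio of 0.21 (0.09 to 0.33). In AGL6sil it had 19338 reads, a log2 ratio of 3.20 to the same ctrl library, and up to 4.68 under the other scalings.

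The immune class, which acts on NBS-LRR receptors and receptor-like proteins, held 13 members of 6 families. By their intervals 5 were below ctrl, 4 above and 4 not resolved, 1 (sly-miR482e-5p) was past the limit, and the median was −0.09. The miR482 family spread from −1.75 to 0.61 over 7 members. At its upper end sly-miR482a had 3849 reads in IAA9sil and 2174 in ctrl (0.61, interval 0.53 to 0.68), and sly-miR482b, with 9600 and 10757, lay at −0.38 (−0.42 to −0.34). The family's sum of 45399 and 48037 reads gave −0.30 (−0.32 to −0.28), above 0 when scaled by clean reads.

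Smaller families of the immune class lay at both ends. sly-miR6026 was 2.18-fold higher, with 395 reads in IAA9sil and 156 in ctrl (1.12, interval 0.85 to 1.40), and sly-miR5300, which like miR482 acts on NBS-LRR genes, had 678 and 417 (0.49, interval 0.31 to 0.67). sly-miR6024 was lower, with 49 and 103 reads (−1.29, interval −1.81 to −0.78). sly-miR6022, which acts on receptor-like protein genes, lay at −0.15 and turned direction with the scale. miR6027 in sum lay at −0.31 (−0.39 to −0.24), inside 1.5-fold under all scalings and above 0 when scaled by clean reads.

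Outside these classes sly-miR1917, which acts in tomato on CTR4 of ethylene signalling, had 48 reads in IAA9sil and 28 in ctrl, a ratio of 0.56 that was not resolved (−0.14 to 1.29). The 33 unclassed members had a median of 0.15, with 8 below ctrl by their interval, 11 above and 14 not resolved. Apart from sly-miR530, they ranged from sly-miR10533 at −1.04, with 13 and 23 reads and not resolved, to sly-miR9471a-3p, which was 2.05-fold higher with 10006 and 4208 reads (1.03, interval 0.98 to 1.09). sly-miR10534 (80 and 39 reads) lay at 0.82, sly-miR9474-5p (15 and 8 reads, not resolved) at 0.69 and sly-miR10538 (67 and 37 reads) at 0.64. The 5 members of miR7981 had ratios between 0.03 and 0.46, of which those of sly-miR7981a and sly-miR7981b were not resolved from 0, and both arms of miR9475 lay at −0.45 and −0.42. sly-miR10532, among the 5 members with the most reads, had 50179 and 35913, a ratio of 0.27 (0.25 to 0.29).

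By family, 4 of 50 (8.0%) were lower past the limit, namely miR393, miR530, miR395 and miR167, and 0 were higher. Scaled by the library medians, family sums lay below ctrl by their interval for 21, above for 16 and were not resolved for 13. Changing the scale turned the direction of 10 families, all of them with a ratio below 0 under the library medians. Among the 21 these were miR319, miR391, miR394, miR482, miR1919, miR6022, miR6027 and miR9470. Of the 91 single members 36.3% were below and 28.6% above with the library medians. The sums of 24 families, with their intervals, stayed inside 1.5-fold of ctrl, and of 15 under all 7 scalings. A sum can hide its members, however. Among the 21 families with 2 or more members, 6 (miR164, miR171, miR390, miR396, miR482 and miR9471) held a member below and a member above ctrl by their intervals, and in 12 all members lay within 1 log2 unit of each other. For miR9471 this depended on the scale. Its member below ctrl, sly-miR9471b-3p at −0.05, turned direction and reached 0.29 with the clean reads.

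**Figure D4:**
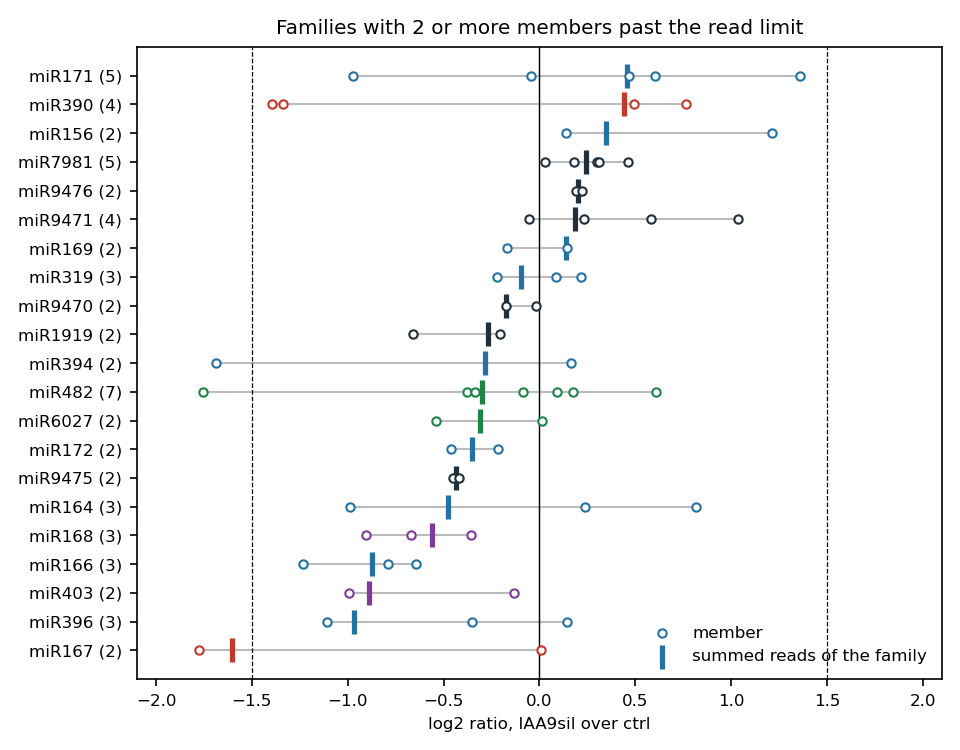
Log2 ratio of IAA9sil over ctrl (x axis) for the 21 families with 2 or more members past the read limit (number of members in parentheses), with open circles for members, thick ticks for the family's summed reads, colours for the target class (red auxin, blue development, purple silencing, green immune, black unclassed) and dashed lines at 1.5 in size, without error bars. The sum of miR167 lies at −1.60 although sly-miR167b-5p lies at 0.01, and miR390 and miR171 spread on both sides of 0.

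Both arms passed the read limit for 16 precursors, and the change of the ratio of the arms from ctrl to IAA9sil, which needs no scaling, was taken for each. The arms of 3 precursors (18.8%) differed in their log2 ratios by at least 1 with the interval excluding 0. For miR482e the reads on 5p for each read on 3p went from 0.784 in ctrl to 0.206 in IAA9sil, a change of −1.93 (−1.98 to −1.88) on the log2 scale. For miR394 the reads on 3p for each on 5p went from 0.584 to 0.162 (−1.85, interval −2.20 to −1.497). For miR164a the same ratio went from 33.0 to 14.1 (−1.23, interval −1.56 to −0.89). In each of the 3 it was the passenger arm that was lower relative to the guide.

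A guide arm is known in plants for 11 of the 16 precursors. The passenger was lower relative to the guide in IAA9sil, with an interval excluding 0, for 7 of them (miR482e, miR394, miR164a, miR403, miR396a, miR166c and miR390b), higher for 2 (miR6027 and miR168a) and not resolved for 2 (miR390a and miR482d). For miR6027 the change of 5p over 3p was 0.55 (0.40 to 0.71). Passenger arms were not always the rarer ones in these counts, and for 7 of the 11 they had more reads than the guide in ctrl. Sorted instead by reads in ctrl, the rarer arm was lower relative to the other for 3 of 16 precursors and higher for 6. Reads of different sequences are not captured with equal efficiency, so only the change of an arm ratio between libraries is read here.

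Counted over single members with a named arm in these families, 15 were guides and 15 passengers. Members whose name gives no arm were left out, among them sly-miR167a, sly-miR166a, sly-miR171a and sly-miR171f. Their log2 ratios were −1.77, −0.79, 1.36 and 0.47 in that order, sly-miR171f being of the arm opposite to sly-miR171a. The values below thus do not cover all guides or all passengers. Of the passengers 9 were below ctrl by their interval and 2 above, with a median log2 ratio of −0.91. Among the 91 known miRNAs 36.3% were below and 28.6% above, with the library medians as the scale. Among all 374, most of them predicted and counted at lower depth, the shares were 20.9% and 17.6%. Of the guides 5 were below and 4 above, with a median of 0.01, against −0.05 over all 374 miRNAs. The guides with a named arm ranged from −1.33 (sly-miR390a-5p) to 1.21 (sly-miR156d-5p) and the passengers from −1.75 (sly-miR482e-5p) to 0.82 (sly-miR164b-3p). In AGL6sil, which is set against the same ctrl library, the medians were −3.46 for the passengers and −1.46 for the guides, and with the median of known miRNAs as the scale they were −1.98 and 0.02. The list of guide arms was drawn up after the values had been seen, and the part of the ctrl library in this difference was not tested.

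**Figure D5:**
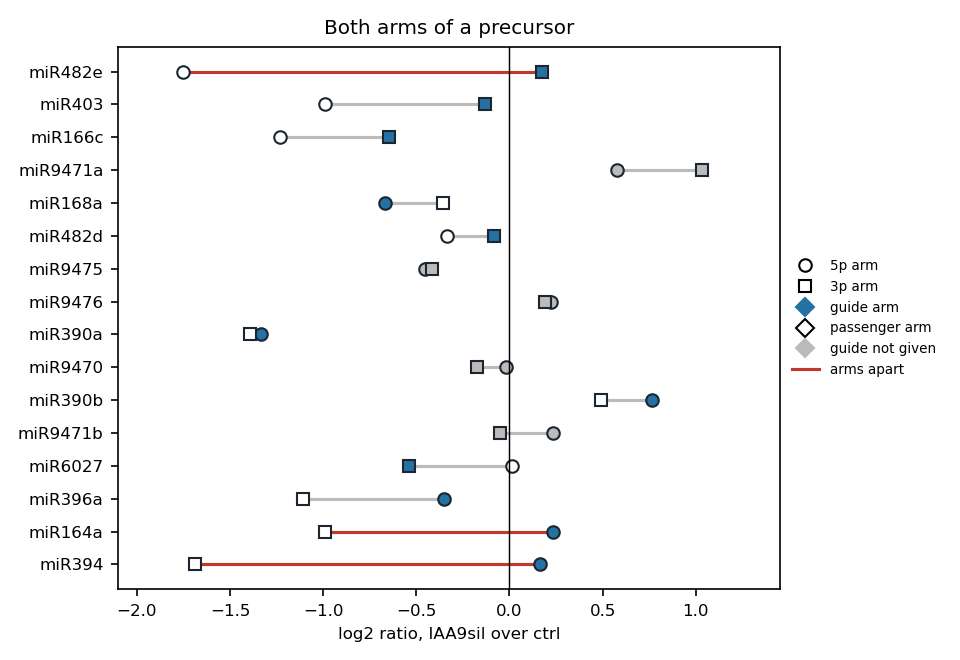
Log2 ratio of IAA9sil over ctrl (x axis) for the 5p (circle) and 3p (square) arm of 16 precursors, ordered by the change of the arm ratio, with guide arms filled blue, passenger arms open and grey symbols where no guide is given. Red lines join the arms of miR482e, miR164a and miR394, whose passenger arms lie to the left of their guides by 1.93, 1.23 and 1.85 log2 units.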

How the data were processed

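Small RNA of 1 library each of IAA9sil, ctrl and AGL6sil ovaries was sequenced. The authors deposited read counts per mature miRNA, obtained by cleaning the reads, mapping them to the reference genome with Bowtie and matching them to miRBase or to precursors predicted with miREvo and mirdeep2. The genome build, the Bowtie version and the rule for reads matching several miRNAs are not given in the sources used here. Counts were not normalized.

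Libraries were scaled by the median count over all 634 miRNAs. The study also scaled by medians, but over which miRNAs is not given in the sources used here. Log2 ratios were taken without a pseudocount, with a count of 0 taken at 3. This touched 0 of the 91 members and 3 of the 374 miRNAs past the read limit, of which 0 were past the log2 limit. A miRNA was past the limit with at least 50 reads in total and a log2 ratio of at least 1.5 in size. Counting intervals (95%) of log2 ratios are Clopper-Pearson. Those of changes of arm ratios are normal approximations on the log scale (Woolf), from the reads of both arms in both libraries. Without replicates no test was made. No paired analysis was possible because each condition has 1 library.

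The members, target classes and limits were chosen with earlier results of these data known. Named miRNAs are those past the limit, the 10 largest decreases and increases, all of miR160, miR167, miR390 and miR393, the target families, arms that differed and the 5 with most reads. sly-miR171b-5p, sly-miR172a, novel_4 and novel_81 and the guide arms were chosen after their values were seen.

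Alternatives were 6 other scalings, 2 other read filters, a pseudocount of 1, low counts raised to 3, a 1.5-fold limit, the interval past the limit and sums over all listed members. The clean reads are the library totals in the paper. The code for calls and intervals was run on simulated counts with counting error alone and planted changes larger than the limit. That simulation held no differences between ovary pools, so it cannot show how reliable the calls are for these ovaries. Python 3.11.15, numpy 2.4.6, pandas 2.3.3, scipy 1.17.1, matplotlib 3.10.9, R 4.3.3, edgeR 4.0.16 (TMM factors) and DESeq2 1.42.0 (median of ratios) were used. Sequences were taken from the supplementary tables of the study.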

Additional observations from a re-analysis of the deposited data

How the results depend on the processing

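The number of known miRNAs lower past the limit, 6 with the library medians, was 2 with the clean reads as the scale, 10 without a read filter and 22 with a 1.5-fold limit, and between 5 and 6 under the other settings named for it in the methods. Of the 4 miRNAs added without a read filter, 3 had 3 or fewer reads in both libraries, and 2 of these had more reads in IAA9sil than in ctrl and were counted as lower only because a 0 in ctrl was taken at 3. Leaving out miRNAs with 3 or fewer reads in both libraries, an alternative chosen after seeing the data, gave 7 lower and 6 higher. Known miRNAs higher past the limit, 0 in the main setting, numbered 1 with the median of known miRNAs, the total miRNA count or no scaling, 2 with the clean reads, 6 without a read filter and 11 with a 1.5-fold limit. The median log2 ratio of the known miRNAs, −0.02, was 0.19 with the median of known miRNAs, 0.18 with the total count, 0.33 with the clean reads and 0.20 without scaling. Intervals above 0 numbered 46 in place of 26 with the clean reads, and those below 0 numbered 23 in place of 33. Families lower past the limit were 2 with the clean reads and 11 with a 1.5-fold limit in place of 4. Families higher were 2 without a read filter or with all listed members summed (miR477 with 31 reads in IAA9sil and 7 in ctrl, and miR9477 with 19 and 4) and 4 with a 1.5-fold limit, in place of 0. The 3 precursors with arms apart were 3 under both other read filters. Of the 6 miRNAs past the limit, none changed sign under a scaling. Differences between ovary pools, which 1 library per condition cannot show, limit every value, and under 100 reads the counting error alone was large.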

Other observations

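Among the 47 predicted miRNAs whose sequence the study's supplement gives, 2 shared at least 15 aligned bases with a member, and both resembled sly-miR395a. Seed bases are in capitals.
novel_4: uUGAAGUGuuugagggaacuc
novel_81: gCUGAAGUguuuaggggaacu
novel_4 was identical to sly-miR395a at 19 of 21 aligned bases and had 720 reads in IAA9sil, 1938 in ctrl and 1898 in AGL6sil, a log2 ratio in IAA9sil of −1.64 (interval −1.77 to −1.52). novel_81 was identical at 19 of 20 aligned bases and had 5, 24 and 64 reads, a log2 ratio of −2.48 (−4.23 to −1.06). Both were lower than ctrl under all 7 scalings, as was sly-miR395a. The supplement gives sequences of predicted miRNAs that differed between libraries, so this is a description of listed sequences, and reads that match more than 1 of the 3 may be shared between them.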
